A study of Mus musculus with 9 samples.

Results

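Solute carriers are the membrane proteins that move nutrients, metabolites and ions across the cell surface and the membranes of lysosomes, mitochondria and other compartments. Their messenger RNAs were followed in mouse bone marrow-derived macrophages. The genes were chosen by name and by level: symbols of the form Slc, a number, the letter a and a number, with a mean of 5 CPM or more over the 9 libraries (CPM are counts scaled to a common library total), and with Slc40a1, Slc11a1, Slc11a2, Slc2a1, Slc16a3, Slc7a11, Slc7a2, Slc3a2 and Slc7a5 left out. Of 13593 genes in the count table, 196 had such a symbol, 49 of them lay below 5 CPM, 9 were left out by name (8 of these were at 5 CPM or more), and 139 remained. The mean CPM was what chose them, so it is given as a description: just inside the limit were Slc24a3 at 5.22, Slc24a5 at 5.68 and Slc46a1 at 5.79 CPM, and just outside it Slc25a14 at 4.91, Slc9a7 at 4.35 and Slc22a15 at 3.77 CPM. The pattern does not take in the nucleotide sugar carriers of the Slc35b to Slc35f subfamilies.

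The macrophages were grown from the marrow of wild type C57BL/6 mice, 6 weeks old, for 7 days with 15% L929 cell supernatant, a source of the macrophage growth factor M-CSF. They were then given 4 nM of CCL26, of CX3CL1 or of bovine serum albumin (BSA, the protein control) for 4 h, with 3 libraries in each group. CX3CL1 is the ligand of the chemokine receptor CX3CR1, and CCL26 is a chemokine best known as a ligand of CCR3 on human eosinophils that was also described as a further ligand of CX3CR1. The comparisons ask how each chemokine changed gene expression relative to the protein control, and how CCL26 and CX3CL1 differed. The labels do not say that libraries of a group came from separate animals or cultures, so a p-value here reflects only how far libraries of 1 group spread, and that spread may be technical.

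In macrophages solute carriers supply amino acids for protein synthesis and for the mTORC1 kinase, bring in zinc, copper and iron and keep them from microbes, move protons, bicarbonate and chloride that set the pH of phagosomes, and pass metabolites between the cytosol and mitochondria. Lysosomal members return the products of digested cargo to the cytosol. The 139 genes were sorted by substrate, by family with some genes placed singly (such as Slc16a10, Slc17a9 and Slc5a6), into 30 mitochondrial carriers of the Slc25 family, 23 carriers of amino acids and peptides, 21 of metals, 19 of nucleosides, vitamins, lipids and cofactors, 18 of protons, bicarbonate, chloride, sodium and calcium, 11 of sugars and polyols, 8 of monocarboxylates and other organic anions, 5 of nucleotide sugars, 2 of organic cations and 2 of phosphate.

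The libraries held 16923982 to 23198324 counts. One CX3CL1 library, labelled B1, stood apart: 1193 genes had no count in it against 80 to 170 genes in the other 8 libraries, and the solute carriers took 1.06% of its counts against 1.49% to 1.60% elsewhere. No solute carrier of the set was at 0 in any library. In B1, 24 of the 139 genes (17.3%) lay more than 1 log2 unit from the mean of the CX3CL1 libraries B2 and B3. Over all 12915 genes tested the share was larger, at 4530 genes (35%). Between B2 and B3, none of the 139 and 222 of all genes tested (1.72%) lay that far apart. All 8 macrophage markers examined were present, with summed levels of 24010 to 24620 CPM in CCL26 libraries, 28080 to 41430 CPM in CX3CL1 libraries and 29860 to 30390 CPM in BSA libraries. Lyz2 dominated these sums, at 18020 to 18510 CPM with CCL26 and 23170 to 23730 CPM with BSA. Lyz2, Adgre1, Cd68, Itgam, Fcgr1 and Mrc1 each had every CCL26 library below every BSA library. The groups overlapped for Mertk, and Csf1r was the only marker with every CCL26 library above every BSA library. The highest sum was that of B1, where Lyz2 alone was at 36700 CPM against 22260 and 21570 CPM in B2 and B3. Cd68, Itgam and Fcgr1 were also higher in B1 than in any other library (Fcgr1 at 156.6 CPM against 79.88 and 80.7 CPM in B2 and B3). Adgre1, Csf1r, Mertk and Mrc1 were each lower in B1 than in any other library (Adgre1 at 1650 CPM against 2868 and 2842 CPM in B2 and B3). The 4 granulocyte markers in the table summed to 45.9 to 48.0 CPM with CCL26, 42.6 to 138 CPM with CX3CL1 (again highest in B1) and 37.0 to 37.9 CPM with BSA; markers of B cells, fibroblasts and dendritic cells summed to at most 5.76 CPM in a library, and those of T cells and erythroid cells were not among the genes of the table. The part of these marker levels in the results below was not tested. In bulk RNA, fewer cells of a type and less RNA per cell cannot be told apart. The count of called carriers in each comparison is given without B1 and with all 9 libraries.

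For 4 carriers that later results turn on, the promoter is shown so that the letters can be set beside the values. Each sequence runs from 250 bases before to 50 bases after the gene's start in RefSeq, 5′ to 3′ on the gene's strand, from RefSeq on build GRCm38.p6. For Slc31a2 that start lies inside the longer span that GENCODE gives the gene (chr4:62262562-62298411). Capitals mark matches, on either strand, to the interferon response core of repeated GAAA, the kappaB consensus, an AP-1 site (TGANTCA), a metal response core (TGCNCNC), an E-box (CACGTG), an amino acid response core (TTGCATCA) or an osmotic element core (TGGAAA). These searched motifs can overlap one another.
Slc38a2 (chr15:96699679-96699978, minus strand): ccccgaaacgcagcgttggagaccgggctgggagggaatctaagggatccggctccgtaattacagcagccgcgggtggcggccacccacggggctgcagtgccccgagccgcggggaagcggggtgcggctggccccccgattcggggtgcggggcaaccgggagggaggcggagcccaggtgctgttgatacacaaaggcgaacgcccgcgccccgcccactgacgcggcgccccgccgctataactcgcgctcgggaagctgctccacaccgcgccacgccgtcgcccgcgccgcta
Slc5a3 (chr16:92058072-92058371, plus strand): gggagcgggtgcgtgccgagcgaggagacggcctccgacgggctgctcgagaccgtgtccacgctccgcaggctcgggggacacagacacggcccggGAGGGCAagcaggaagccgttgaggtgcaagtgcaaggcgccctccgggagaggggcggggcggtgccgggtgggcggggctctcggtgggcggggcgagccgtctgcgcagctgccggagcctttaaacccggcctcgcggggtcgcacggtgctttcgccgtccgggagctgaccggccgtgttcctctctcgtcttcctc
Slc31a2 (chr4:62286179-62286478, plus strand): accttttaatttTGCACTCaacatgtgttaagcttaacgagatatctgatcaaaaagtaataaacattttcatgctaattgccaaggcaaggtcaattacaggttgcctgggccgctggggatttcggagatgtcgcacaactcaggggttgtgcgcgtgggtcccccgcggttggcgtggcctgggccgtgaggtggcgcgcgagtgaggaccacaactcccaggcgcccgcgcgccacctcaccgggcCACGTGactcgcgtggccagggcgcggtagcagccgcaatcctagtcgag
Slc13a3 (chr2:165473148-165473447, minus strand): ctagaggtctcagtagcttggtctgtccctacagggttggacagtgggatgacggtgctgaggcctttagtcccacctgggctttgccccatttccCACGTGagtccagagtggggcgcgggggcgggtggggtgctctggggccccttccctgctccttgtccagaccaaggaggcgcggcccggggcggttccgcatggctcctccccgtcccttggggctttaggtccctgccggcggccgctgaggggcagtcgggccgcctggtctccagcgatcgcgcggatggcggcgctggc

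A match describes letters only, and the window without capitals, that of Slc38a2, says only that these letters are not in it. Of the 139 genes, 106 had an entry in the RefSeq promoter table, with 148 promoters in all. The E-box stood in 16.89% of these promoters and in 7.15% of all 32851 promoters of the table, and the GC box (GGGCGG, not capitalised above) in 68.24% and 35.66%. The metal response core stood in 58.11% of the carriers' promoters and 51.03% of all, the osmotic element core in 13.51% and 21.43%, the CCAAT box (CCAAT) in 33.11% and 37.41%, and the amino acid response core in 2.70% and 0.89%. The interferon response core was found in 2.03% and 3.44%, the kappaB consensus in 10.81% and 8.46%, and the AP-1 site in 7.43% and 7.81%. The 32851 promoters were not limited to genes at 5 CPM or more, as the carriers were. Shares over genes of like level were not computed.

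Levels of the carriers spread widely when counts were scaled per kb of exon. The median was 7.85 CPM per kb, the lowest 0.50 CPM per kb for Slc37a1, and 58 of the 139 genes were at 10 CPM per kb or more. The highest level was that of Slc13a3 (NaDC3, a sodium-coupled carrier of succinate and other dicarboxylates) at 379 CPM per kb. Slc25a5, an ADP/ATP exchanger of mitochondria, followed at 322, Slc38a2, a sodium-coupled carrier of small neutral amino acids, at 208, and Slc6a6, the taurine carrier, at 139 CPM per kb. Next came the mitochondrial phosphate carrier Slc25a3 at 96.1, the heme carrier Slc48a1 at 91.6, the zinc importer Slc39a6 at 89.4, the copper carrier Slc31a2 at 85.9, the lysosomal peptide and histidine carrier Slc15a3 at 78.7 and a further ADP/ATP exchanger, Slc25a4, at 67.1 CPM per kb.

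With CCL26 set against BSA, carriers called lower included Slc38a2, Slc5a3, Slc23a3, Slc13a3 and the zinc carriers Slc39a6, Slc39a10 and Slc30a5, and those called higher included Slc31a2, Slc43a3, Slc2a6, Slc15a3 and Slc7a1. The median size of change among called genes was 0.304 on the log2 scale, and 6 of them passed 0.5. Without B1, edgeR's quasi-likelihood test (adjusted p under 0.05 over all genes tested) called 39 of the 139 carriers (28.1%), 19 higher and 20 lower. Over all 13245 genes tested it called 19.0%, with 9.74% higher and 9.26% lower; among the 9329 genes at 5 CPM or more, the limit the carriers also had to meet, it called 25.1%, with 12.7% higher and 12.4% lower. The share among the carriers was thus near that of genes of like level. The 3 CCL26 libraries did not overlap the 3 BSA libraries for 55 carriers (39.6%), which include all 39 called ones, against 32.7% of all genes tested. The median log2 fold change was -0.0036 over the carriers and 0.0082 over all genes tested.

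With all 9 libraries the same test called none of the 139 carriers, and 0.434% of 12915 genes tested. At an unadjusted p under 0.05 it counted 16 of the 139 carriers and 792 of the 12915 genes. DESeq2 called 6 carriers (Slc13a3, Slc15a3, Slc20a1, Slc23a3, Slc30a5 and Slc31a2) and 248 of the 12915 genes. The fold changes themselves hardly moved, since B1 is in neither group: no carrier changed sign. What differed was the shared estimate of the spread, with a median standard error of 0.187 over the carriers with B1 and 0.0834 without it. All fold changes below are log2 values without B1 with standard error (SE), and adjusted p-values are those of edgeR.

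**Figure D1:**
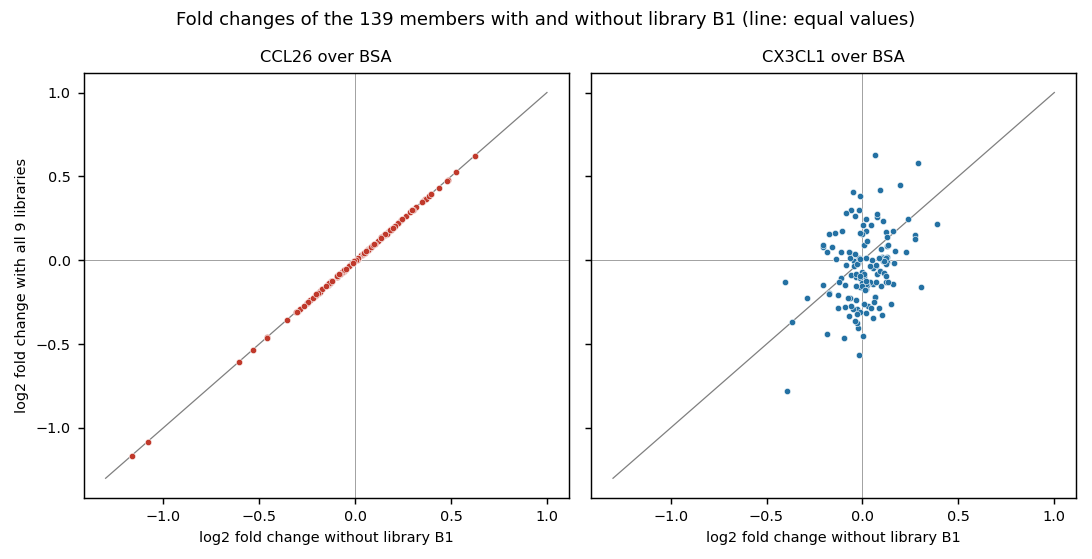
Log2 fold change of each of the 139 carriers without library B1 (x axis) and with all 9 libraries (y axis), for CCL26 over BSA at left and CX3CL1 over BSA at right; 1 point is 1 gene and the line marks equal values. The CCL26 points lie on the line (0 changes of sign), and the CX3CL1 points scatter about it, with 65 of 139 changing sign.

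Metal carriers held 5 lower and 2 higher genes among 21, where 19.0% of all genes tested and 25.1% of those at 5 CPM or more were called. Slc39a6 (ZIP6), which brings zinc into the cell, had 302.8, 304.1 and 289.5 CPM in CCL26 libraries, against 440.3, 420.8 and 439.4 CPM in BSA libraries. Every CCL26 library lay below every BSA library, and the gene fell by 0.53 (SE 0.039, adjusted p = 2.2e-10). Its closest relative Slc39a10 (ZIP10) had 50.5, 55.1 and 48.3 CPM with CCL26 and 72.6, 69.5 and 70.3 CPM with BSA. Slc39a10 also fell, by 0.46 (SE 0.069, adjusted p = 2.0e-05), with no overlap. Slc30a5 (ZnT5), which loads zinc into the secretory pathway, had 169.8, 158.8 and 154.4 CPM with CCL26, against 234.1, 204.1 and 226.3 CPM with BSA, and fell by 0.46 (SE 0.053, adjusted p = 4.7e-07). Slc39a8 (ZIP8, a zinc and manganese importer) and Slc39a4 (ZIP4, a zinc importer) were called lower with log2 values of -0.20 and -0.19. Leaving out any 1 of 5 libraries raised the adjusted p of Slc39a8 to as much as 0.111, and any 1 of 3 libraries (CCL26 replicate 1, BSA replicate 1 or 2) that of Slc39a4 to as much as 0.0679. In the Slc39 family of 10, 4 were lower and 1 was higher, with a median of -0.12; in the Slc30 family of 6, 1 was lower, and Slc30a1 (ZnT1), the exporter of zinc at the cell surface, missed the threshold at 0.18 (adjusted p = 0.0529).

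The higher metal carriers were Slc31a2 and Slc39a3. Slc31a2 (CTR2), a copper carrier of endosomes and lysosomes, had 226.9, 227.8 and 227.7 CPM in CCL26 libraries, against 147.4, 142.9 and 152.6 CPM in BSA libraries. The groups were far apart relative to their spread, and the gene rose by 0.63 (SE 0.046, adjusted p = 2.2e-10). With all 9 libraries it had the lowest adjusted p of the 139 carriers, 0.0599. Its neighbour on chromosome 4, Slc31a1 (CTR1), the copper importer of the cell surface, had 185.5, 184.3 and 174.4 CPM with CCL26 and 192.5, 187.1 and 184.6 CPM with BSA, a log2 difference of -0.05 (adjusted p = 0.542). Slc39a3 (ZIP3), a zinc importer, was called higher at 0.39 (SE 0.12, adjusted p = 0.0194), a call that ended without CCL26 replicate 1 or without BSA replicate 3 (adjusted p up to 0.142). Mt1, a metallothionein that binds zinc and copper and is no carrier, was lower with CCL26, at 120.6, 110.4 and 121.2 CPM against 137.0, 148.7 and 135.0 CPM with BSA (-0.25, SE 0.059, adjusted p = 0.00278). The other 3 metal response genes examined were not called: Mtf1, the zinc-sensing transcription factor, was at 0.24 (adjusted p = 0.0601), and Mt2 and Mt3, both at 1.38 CPM or less with CCL26 and with BSA, were at -0.07 and 0.33.

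**Figure D2:**
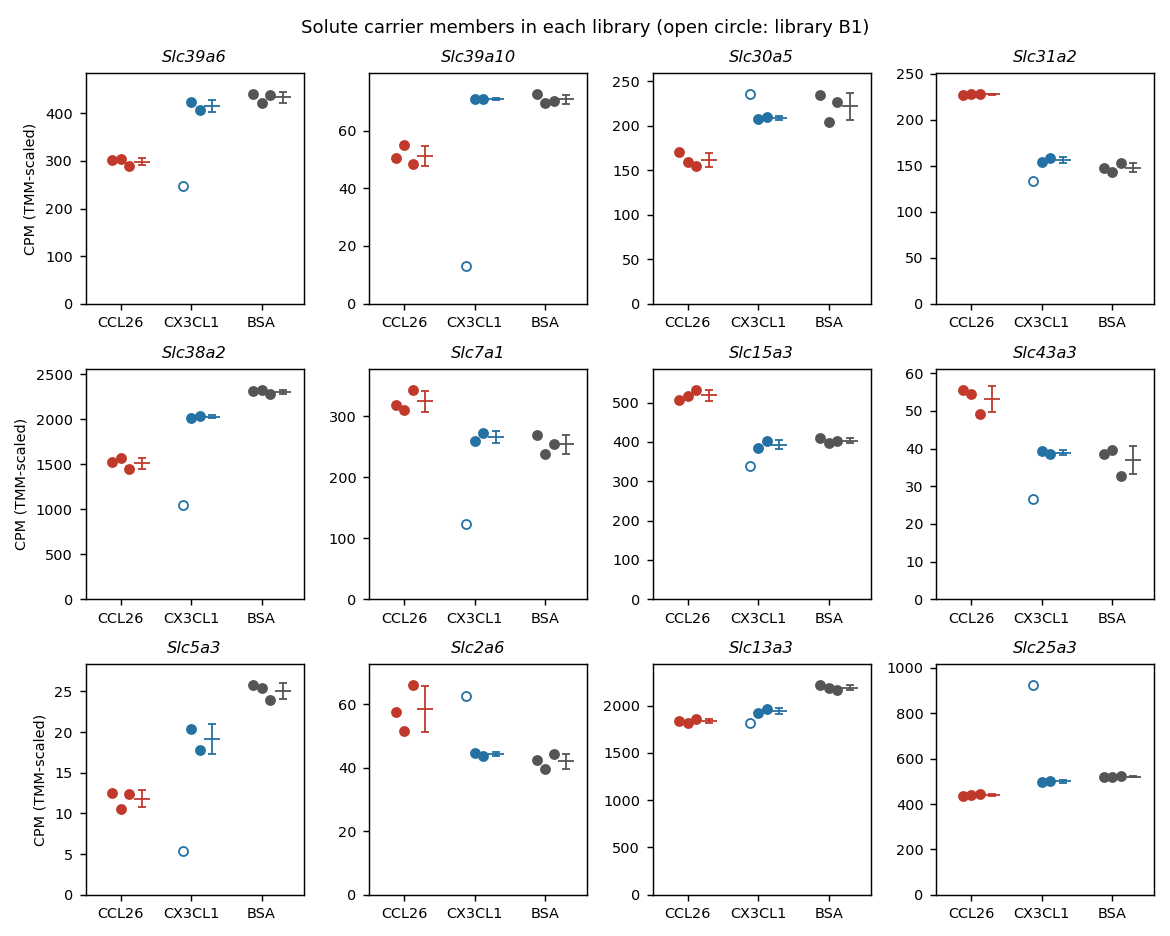
Level of 12 carriers in each library, in CPM scaled by TMM; filled points are libraries, the open circle is library B1, and the bar beside each group gives the mean and SD (3 CCL26, 2 CX3CL1 without B1, 3 BSA). In all 12 the CCL26 points lie clear of the BSA points, as for Slc31a2 (226.9 to 227.8 against 142.9 to 152.6). The distance of B1 from the other CX3CL1 points varies. It is wide for Slc39a10 (13.0 against 70.8 and 71.1) and small for Slc13a3 (1820 against 1920 and 1965).

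Among the 23 carriers of amino acids and peptides, 9 were higher and 2 lower, although the largest change in the class was a fall. Of all genes at 5 CPM or more, 12.7% were higher and 12.4% lower. Slc38a2 (SNAT2) had 1528, 1567 and 1446 CPM with CCL26, against 2310, 2329 and 2282 CPM with BSA. It fell by 0.61 (SE 0.029, adjusted p = 4.1e-14), the lowest adjusted p of the set, and its groups lay far apart. Slc38a1 (SNAT1), which lies 44479 bases away on chromosome 15 and carries an overlapping range of amino acids, had 304.6, 314.5 and 306.8 CPM with CCL26 and 308.4, 298.1 and 297.8 CPM with BSA (0.04, adjusted p = 0.593). The summed level of the class, Slc38a2 included, was 5611 to 5628 CPM with CCL26 and 6176 to 6254 CPM with BSA, although more of its genes rose than fell. Slc38a2 alone fell by more CPM than this sum did, so the rest of the class was higher with CCL26. The other lower gene was Slc36a1 (PAT1), a proton-coupled exporter of small amino acids from lysosomes, at -0.30 (SE 0.072, adjusted p = 0.00376).

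The higher genes of the class included Slc7a1 (CAT1), the carrier of arginine and lysine, at 318.7, 310.7 and 343.3 CPM with CCL26 and 269.6, 238.1 and 254.1 CPM with BSA (0.36, SE 0.049, adjusted p = 6.8e-06). Slc15a3 (PHT2), of lysosomes, had 505.5, 517.5 and 532.9 CPM with CCL26, against 409.6, 396.4 and 403.1 CPM with BSA, a rise of 0.37 (SE 0.037, adjusted p = 6.4e-08). The groups did not overlap for either gene. Exons of Slc15a3 overlap those of Tmem132a on the opposite strand, which was also called higher (0.32), and no source used here states whether reads were assigned by strand. Slc43a3, placed here by its family although it is known in humans as a carrier of purine nucleobases, had 55.6, 54.4 and 49.1 CPM with CCL26 and 38.5, 39.6 and 32.6 CPM with BSA (0.53, SE 0.085, adjusted p = 6.0e-05).

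Slc1a5 (ASCT2), a carrier of glutamine and small neutral amino acids, had 80.8, 83.3 and 87.2 CPM with CCL26 and 68.1, 68.9 and 67.2 CPM with BSA (0.30, SE 0.064, adjusted p = 0.00125), and Slc38a7, a glutamine exporter of lysosomes, changed by 0.27 (SE 0.053, adjusted p = 0.000714). Slc1a4 (ASCT1) was called at 0.31, which failed without BSA replicate 3 (adjusted p = 0.0842). Slc38a9, a lysosomal carrier that reports arginine to mTORC1, was low at 20.8, 15.7 and 14.5 CPM with CCL26 and 12.6, 11.3 and 14.1 CPM with BSA; its call at 0.44 (adjusted p = 0.0317) ended in 3 of the 8 tests that left out a library, CCL26 replicate 1 or BSA replicate 1 or 2, with an adjusted p up to 0.254. Slc36a4 (0.18) and Slc43a2 (0.13) were near the threshold and lost their calls in 4 and 6 of the 8 such tests. The taurine carrier Slc6a6 was not called (-0.08, adjusted p = 0.0581).

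Of the 11 sugar and polyol carriers, 2 were lower and 1 was higher with CCL26, beside 25.1% of all genes at 5 CPM or more called in either direction. Slc5a3 (SMIT1), which concentrates the osmolyte myo-inositol in cells, had 12.5, 10.6 and 12.4 CPM in CCL26 libraries, against 25.8, 25.4 and 24.0 CPM in BSA libraries. It fell by 1.08 (SE 0.12, adjusted p = 1.9e-07) with wide separation. Slc5a3 shares exon sequence with Mrps6, a mitochondrial ribosomal protein gene on the same strand, which was lower too (-0.53, adjusted p = 0.0171), so that reads from the shared exon cannot be told apart. Slc2a6 (GLUT6), a hexose carrier of lysosomes that rises in inflammatory macrophages, had 57.6, 51.6 and 66.0 CPM with CCL26 and 42.3, 39.5 and 44.3 CPM with BSA (0.48, SE 0.085, adjusted p = 2.0e-04). Slc45a4, a relative of the sugar carriers, fell by 0.25 (SE 0.061, adjusted p = 0.00494). The 8 others of the 11 were not called.

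Of the 30 mitochondrial carriers of the Slc25 family, 5 were called lower and 1 higher, a share near that over all genes tested (19.0%) and below that of genes of like level (25.1%). The phosphate carrier Slc25a3 had 436.6, 437.5 and 446.0 CPM with CCL26, against 517.9, 518.5 and 522.6 CPM with BSA, and fell by 0.24 (SE 0.035, adjusted p = 1.7e-05). Slc25a5 had 461.2, 450.0 and 466.7 CPM with CCL26 and 535.1, 519.2 and 541.5 CPM with BSA (-0.21, SE 0.038, adjusted p = 2.8e-04). Slc25a44, a carrier of branched-chain amino acids, had 203.8, 213.8 and 210.3 CPM with CCL26 and 253.7, 257.8 and 257.5 CPM with BSA (-0.29, SE 0.042, adjusted p = 1.5e-05). These 3 sets of libraries were tight and did not overlap. Calls for the pyrimidine nucleotide carrier Slc25a36 (-0.20) and the exchanger Slc25a4 (-0.17) were less firm, ending without BSA replicate 2 for Slc25a36 (adjusted p = 0.0751) and in 5 of the 8 tests that left out a library for Slc25a4 (adjusted p up to 0.232). The glutamate carrier Slc25a22 was higher at 0.37 (SE 0.11, adjusted p = 0.0149), lost without BSA replicate 2 or 3 (adjusted p up to 0.0659). The summed level of the family was 2354 to 2409 CPM with CCL26 and 2616 to 2637 CPM with BSA.

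Of the 8 carriers of organic anions, Slc13a3, the most abundant gene of the set, had 1840, 1814 and 1861 CPM with CCL26, against 2215, 2187 and 2168 CPM with BSA. It fell by 0.25 (SE 0.026, adjusted p = 8.7e-08). Slc16a1 (MCT1), a proton-coupled carrier of lactate and pyruvate, had 48.1, 46.4 and 47.8 CPM with CCL26 and 57.2, 55.4 and 57.3 CPM with BSA (-0.25, SE 0.069, adjusted p = 0.0105). Slc16a6 (MCT7), known in zebrafish as a carrier of ketone bodies, changed the other way, at 38.0, 38.8 and 39.7 CPM with CCL26 and 30.7, 32.0 and 31.0 CPM with BSA (0.32, SE 0.084, adjusted p = 0.00833). Exons of Slc16a6 overlap those of Amz2 and Arsg on the opposite strand. The Slc16 family of 5 held 1 higher and 1 lower gene, with a median log2 value of 0.089. Of 15 partners and chaperones of solute carriers, 3 were higher and 4 lower. Among the lower were 2 chaperones that take monocarboxylate carriers to the cell surface. Bsg (basigin) had a log2 value of -0.20 (adjusted p = 0.00226) and Emb (embigin) one of -0.37 (adjusted p = 1.3e-05).

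Carriers of nucleosides, vitamins and cofactors were split, with 3 higher and 3 lower of 19, against 25.1% of genes at 5 CPM or more called. Slc29a1 (ENT1), which lets nucleosides equilibrate across the cell membrane, had 44.0, 44.8 and 42.8 CPM with CCL26 and 33.7, 35.8 and 34.1 CPM with BSA (0.35, SE 0.080, adjusted p = 0.00258). The sodium-coupled nucleoside carrier Slc28a2 (0.25, adjusted p = 0.0319) and the fatty acid carrier Slc27a1 (0.19, adjusted p = 0.0342) were called higher, and each lost its call in 4 of the 8 tests that left out a library. The largest fall in the whole set was that of a low gene: Slc23a3, a relative of the ascorbate carriers, had 4.26, 2.74 and 4.23 CPM with CCL26, against 8.21, 6.99 and 10.02 CPM with BSA (-1.16, SE 0.20, adjusted p = 1.7e-04). The thiamine carrier Slc19a2 was lower at -0.36 (adjusted p = 0.0162), lost without CCL26 replicate 2 or BSA replicate 1 (adjusted p up to 0.114). Slc48a1 (HRG1), which moves heme out of phagolysosomes, was lower at -0.14 (adjusted p = 0.0319), a call lost in 4 such tests. Exons of Slc48a1 overlap those of Hdac7 on the opposite strand, itself lower at -0.68.

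In the class of 18 carriers of protons, bicarbonate, chloride, sodium and calcium, 2 were higher and none was lower. Of all 13245 genes tested, 9.74% were higher and 9.26% lower. The log2 fold change was positive for 14 of the 18, with a median of 0.12, and for 6808 of the 13245, with a median of 0.0082. Slc4a7 (NBCn1), a sodium-bicarbonate carrier described in human macrophages as needed for phagosome acidification, had 74.7, 75.8 and 66.3 CPM with CCL26, against 58.2, 58.8 and 59.3 CPM with BSA (0.30, SE 0.069, adjusted p = 0.00237). The chloride-bicarbonate exchanger Slc4a3 (AE3) was low, at 9.14, 10.4 and 8.36 CPM with CCL26 and 6.52, 7.04 and 6.46 CPM with BSA; its call at 0.48 (adjusted p = 0.0391) was lost in 5 of the 8 tests that left out a library. Of the phosphate carriers, Slc20a1 (PiT1) had 140.1, 137.9 and 136.3 CPM with CCL26 and 172.8, 168.7 and 171.1 CPM with BSA, and fell by 0.30 (SE 0.047, adjusted p = 3.1e-05). Slc20a2 (PiT2), with the same substrate, was at 0.40 (SE 0.17, adjusted p = 0.102) and was not called. No carrier of nucleotide sugars or of organic cations was called.

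Of the 39 calls, 24 (10 higher and 14 lower) held in each of the 8 tests that left out a further library. The same 24 held under every other setting tried without B1, except the limit on the adjusted p. With all 9 libraries the same edgeR test called 0 of the 139. Exons of 22 of the 139 carriers overlap an exon of another gene of the table, 20 of them with a gene on the opposite strand, and 8 of the 39 called carriers were among these (Slc15a3, Slc16a6, Slc20a1, Slc29a1, Slc38a9, Slc43a2, Slc48a1 and Slc5a3).

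**Figure D3:**
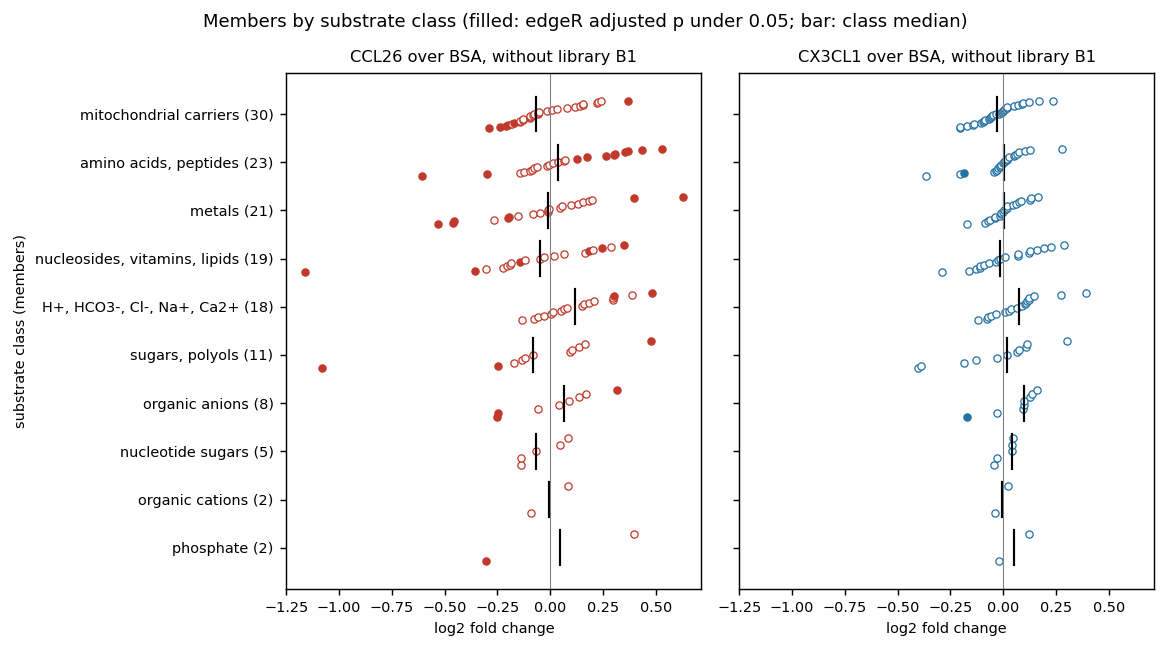
Log2 fold change of each carrier (x axis) by substrate class (y axis, with the number of genes), for CCL26 over BSA at left and CX3CL1 over BSA at right, both without library B1; filled points passed edgeR's test and the vertical bar is the class median. With CCL26, 39 points are filled and reach from -1.16 to 0.63, and the CX3CL1 panel has 2 filled points.

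CX3CL1 set against BSA left nearly all carriers uncalled. Without B1, 2 of the 139 (1.44%) were called, both lower, against 0.332% of all genes tested (0.310% lower) and 0.472% of genes at 5 CPM or more. Slc38a2 had 2019 and 2039 CPM in CX3CL1 libraries B2 and B3 and 1042 CPM in B1, against 2310, 2329 and 2282 CPM in BSA libraries, a fall of 0.19 without B1 (SE 0.032, adjusted p = 0.0133). Slc13a3 had 1920 and 1965 CPM in B2 and B3 and 1820 CPM in B1, against 2215, 2187 and 2168 CPM with BSA, a fall of 0.17 (SE 0.029, adjusted p = 0.0122). All CX3CL1 libraries, B1 included, lay below all BSA libraries for both genes. Leaving out 1 more of the CX3CL1 or BSA libraries ended both calls. With all 9 libraries none of the 139 was called, nor was any gene of the table (0.0%). Then 2 of the 139 carriers and 405 of 12915 genes tested were under an unadjusted p of 0.05, and DESeq2 called 0 carriers and 0 genes.

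None of the other carriers called for CCL26 was called for CX3CL1 without B1, beside the same BSA libraries. Slc39a6 was at -0.06, Slc39a10 at 0.0037, Slc30a5 at -0.09, Slc31a2 at 0.09, Slc15a3 at -0.03, Slc7a1 at 0.07, Slc43a3 at 0.08 and Slc25a3 at -0.06. Slc5a3 had 20.4 and 17.8 CPM in B2 and B3 and 5.43 CPM in B1, with a log2 difference from BSA of -0.39 (SE 0.13, adjusted p = 0.345). Slc29a1 was at 0.29 (SE 0.089, adjusted p = 0.286), Slc38a9 at 0.28 (adjusted p = 0.744) and Slc4a3 at 0.27 (adjusted p = 0.795).

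Values with CX3CL1 depended on B1, which is a CX3CL1 library and is in neither group of CCL26 against BSA. Including B1 turned the sign of the log2 fold change over BSA for 65 of the 139 carriers. The genes furthest below B2 and B3 in B1, on the log2 scale, were Slc6a9, a glycine carrier, with 0.53 CPM in B1 against 16.3 and 15.0 CPM in B2 and B3, and Slc39a10, with 13.0 CPM against 70.8 and 71.1 CPM. Slc6a6 had 372 CPM in B1 against 1333 and 1340 CPM. Mitochondrial carriers were higher in B1, with a summed level of 3400 CPM against 2537 and 2525 CPM in B2 and B3, and carriers of amino acids were lower, at 3331 CPM against 5950 and 6028 CPM.

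**Figure D4:**
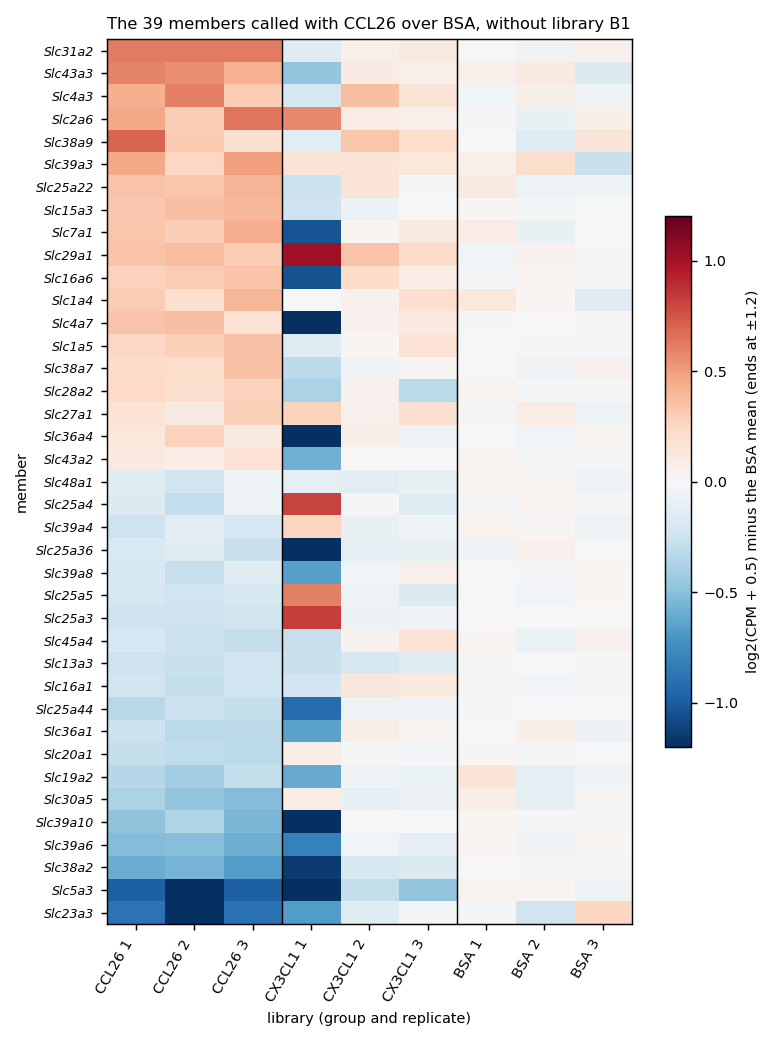
Level of the 39 carriers called for CCL26 over BSA without library B1 (rows, ordered by fold change) in each of the 9 libraries (columns), as log2(CPM + 0.5) minus the mean of the BSA libraries; red is higher, blue is lower and the scale ends at 1.2 in either direction. CX3CL1 2 and 3 stay near the BSA libraries, and CX3CL1 1, which is B1, departs from them in both directions.

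The difference between the chemokines was tested in the comparison of CCL26 with CX3CL1. Without B1, 21 of the 139 carriers were called (15.1%), 7 higher and 14 lower, against 10.1% of all genes tested (5.47% higher and 4.64% lower) and 13.7% of those at 5 CPM or more. With all 9 libraries the count was 0 against 0.410% of all genes. Under an unadjusted p of 0.05 were 14 of the 139 carriers and 1484 of 12915 genes tested. DESeq2 called 4 carriers (Slc15a3, Slc20a1, Slc30a5 and Slc31a2) and 253 of the 12915 genes. Slc31a2 was higher with CCL26, at 226.9 to 227.8 CPM, than in CX3CL1 libraries B2 and B3, at 154.3 and 158.9 CPM, with 133.0 CPM in B1 (0.54, SE 0.052, adjusted p = 4.2e-08). Slc15a3, at 505.5 to 532.9 CPM with CCL26 and 385.0 and 401.7 CPM in B2 and B3 (339.3 CPM in B1), was also higher (0.40, SE 0.042, adjusted p = 1.8e-07).

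The lower genes in that comparison included zinc carriers. Slc39a6 was at 289.5 to 304.1 CPM with CCL26 and at 424.9 and 406.1 CPM in B2 and B3, with 247.3 CPM in B1 (-0.47, SE 0.043, adjusted p = 2.0e-08). Slc39a10 and Slc30a5 were at -0.47 (SE 0.076, adjusted p = 1.3e-04) and -0.37 (SE 0.058, adjusted p = 8.1e-05). For Slc39a6 and Slc39a10 the value in B1 lay below those with CCL26, so without that library the groups were apart and with it they overlapped; their log2 values with all 9 libraries were -0.27 and -0.01. Slc38a2 was lower with CCL26 than with CX3CL1 (-0.42, SE 0.032, adjusted p = 5.5e-10), as were Slc16a1 (-0.38, adjusted p = 0.0013), Slc45a4 (-0.36, adjusted p = 6.4e-04), Slc20a1 (-0.28, adjusted p = 4.8e-04) and Slc5a3 (-0.69, adjusted p = 7.5e-04). The groups of Slc38a2, Slc5a3 and Slc45a4 likewise overlapped once B1 was counted, with log2 values of -0.17, -0.31 and -0.24 with all 9 libraries. The taurine carrier Slc6a6 was called lower without B1 (-0.13, SE 0.031, adjusted p = 0.00612), at 1202 to 1232 CPM with CCL26 and 1333 and 1340 CPM in B2 and B3, whereas with B1 (372 CPM) its value was 0.26; it also lost the call without either remaining CX3CL1 library (adjusted p up to 0.0879). Slc13a3 was not called between the chemokines (-0.08, SE 0.029, adjusted p = 0.101). Leaving out 1 further library kept 13 of the 21 calls in every case, 3 higher and 10 lower.

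The lists that follow were read without B1, where the test of CCL26 against BSA called 19.0% of all genes and 25.1% of those at 5 CPM or more. With all 9 libraries none of their genes was called by edgeR. At an unadjusted p under 0.05 were 2 of the 9 carriers left out by name, 4 of the 17 innate immune carriers, 2 of 14 tested partners and 0 of the 4 metal response genes. Over all genes tested, 792 of 12915 were. DESeq2 with all 9 libraries called 2 of the innate immune carriers (Slc13a3 and Slc15a3), 0 in the other lists just named, and 248 of the 12915 genes. Among the 9 carriers left out by name, 3 were higher and 2 lower with CCL26. Slc40a1 (ferroportin), the iron exporter, had 78.3, 73.6 and 69.6 CPM with CCL26, 87.0 and 86.3 CPM in CX3CL1 libraries B2 and B3 (56.1 CPM in B1) and 115.9, 107.6 and 108.3 CPM with BSA. Without B1 it fell with both, by 0.58 with CCL26 (adjusted p = 1.2e-07) and by 0.35 with CX3CL1 (adjusted p = 0.0247). A list of carriers tied to innate immunity, all 17 of whose genes in the table are among the 139, held 4 higher and 3 lower, where 39 of the 139 were called. The median log2 value of that list was -0.09, beside 0.0082 over all genes tested. Of 15 partners and chaperones of solute carriers, 3 were higher and 4 lower with CCL26, and of 4 metal response genes 1 was lower, the Mt1 given above.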

How the data were processed

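Gene counts were deposited by the authors as 1 table of whole-number counts for 9 libraries. Per the submitters' processing notes, STAR, featureCounts and MultiQC were used with builds GRCm38 and mm10; no source used here gives their versions or settings, strand use included. Per the labels' protocols, libraries were made with the NEBNext Ultra II kit and sequenced as paired ends of 150 bases. From the counts, CPM was computed with TMM scaling (edgeR 4.0.16, R 4.3.3). Groups were compared with edgeR's quasi-likelihood test over all genes kept by filterByExpr, p-values adjusted by Benjamini-Hochberg and called under 0.05, with all 9 libraries and without B1; all 139 carriers passed the filter in both, and the rule for the carriers gave the same 139 genes without B1. DESeq2 1.42.0 and limma 3.58.1 were alternatives. Symbols, exons and coordinates came from GENCODE release 21 for mouse on GRCm38, promoters from RefSeq on GRCm38.p6. Named carriers are those past the threshold with the largest changes in each direction, the 10 highest per kb and those leading their class, with neighbours and relatives added after their values were seen. The carriers, classes and lists were chosen with earlier results of these data known. Libraries with equal replicate numbers were not treated as pairs in the main test.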

Additional observations from a re-analysis of the deposited data

How the results depend on the processing

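With all 9 libraries, the counts of called carriers for CCL26 against BSA, CX3CL1 against BSA and CCL26 against CX3CL1 were 0, 0 and 0. They were 6, 0 and 4 with DESeq2, beside 248, 0 and 253 of all 12915 genes tested. With limma-voom and library quality weights they were 38, 2 and 20, beside 2479, 29 and 1340 of all genes. CCL26 against BSA gave 1 with an adjusted p under 0.1, with upper quartile scaling or with a filter of 5 CPM in 3 libraries, and 38 with the CCL26 and BSA libraries alone; CCL26 against CX3CL1 gave 1 with an adjusted p under 0.1 or the 5 CPM filter. The gene was Slc31a2 in each case of 1. Leaving out 1 library gave 0 to 39, 0 to 2 and 0 to 21, above 0 only without B1 (CX3CL1 replicate 1). Without B1 the counts were 39, 2 and 21. An adjusted p under 0.01 left 23 for CCL26 against BSA and 0 for CX3CL1 against BSA. Leaving out a further library gave 28 to 41, 0 to 2 and 15 to 26, with 0 for CX3CL1 against BSA whenever either remaining CX3CL1 library or any BSA library was left out; the lone CX3CL1 library is then assumed to vary like the other groups. The causes of these moves were not tested. For CCL26 against CX3CL1 the value of Slc6a6 was -0.13 without B1 and 0.26 with all 9 libraries. With the replicate number as a block the counts were 0, 0 and 0 with all 9 libraries and 40, 2 and 20 without B1; correlations of same-numbered libraries, from -0.078 to 0.051, did not show a pairing. Of 162 comparisons of named carriers, 56 were called without B1, and only these could lose a call. Over 3078 alternative values, 121 lost a call, 24 gained one, and 1 changed sign where either fit gave a call. Of the losses, 55 came with all 9 libraries, 8 under other settings without B1, and the rest when a further library was left out. Depth limits low carriers such as Slc23a3 and Slc4a3, whose standard errors were wider than the median over the carriers.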

Other observations

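Among 27 ABC transporters in the table, edgeR's test without B1 called 2 higher and 1 lower with CCL26, where it called 19.0% of all genes. With all 9 libraries it called 0 of the 27, with 1 at an unadjusted p under 0.05, and DESeq2 called 0. Over all 12915 genes then tested, 792 were at that p and DESeq2 called 248. Abca1, which exports cholesterol and phospholipid to apolipoprotein A-I, had 413.1, 401.4 and 386.9 CPM with CCL26, 282.2 and 284.6 CPM in CX3CL1 libraries B2 and B3 (69.0 CPM in B1) and 283.7, 275.8 and 269.1 CPM with BSA. Its log2 fold change over BSA was 0.54 with CCL26 (adjusted p = 3.0e-10) and 0.04 with CX3CL1 (adjusted p = 0.930). Tap1, which moves peptides into the endoplasmic reticulum for MHC class I, rose by 0.44 with CCL26 (adjusted p = 9.5e-05), while its partner Tap2 was at 0.02 (adjusted p = 0.923). Abcc4, an exporter of organic anions and cyclic nucleotides, fell by 0.25 (adjusted p = 0.0321).

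Of 50 tested carriers with symbols of other kinds, 8 were lower and none was higher with CCL26 by edgeR's test without B1, beside 16 at an unadjusted p under 0.05 in either direction. Over all 13245 genes tested 9.74% were higher and 9.26% lower, and 3999 were at an unadjusted p under 0.05. With all 9 libraries 0 of the 50 were called by edgeR, 2 were at an unadjusted p under 0.05, and DESeq2 called 2 lower (Slco4a1 and Ucp1). Ucp1 was very low, at 0.44, 0.34 and 0.38 CPM with CCL26 and 1.18, 2.04 and 2.15 CPM with BSA. Slco4a1, an organic anion carrier, had 201.5, 204.6 and 212.2 CPM with CCL26 and 312.0, 312.1 and 304.8 CPM with BSA (-0.58, adjusted p = 1.1e-10). The lysosomal cholesterol carrier Npc1 had 392.7, 377.0 and 371.8 CPM with CCL26 and 415.0, 416.0 and 413.8 CPM with BSA (-0.12, adjusted p = 0.0227). Ucp2 had 380.1, 380.5 and 380.5 CPM with CCL26 and 444.6, 417.4 and 418.5 CPM with BSA (-0.16, adjusted p = 0.0030).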
